A study of Mus musculus with 9 samples.

Results

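The Notch genes described here are 10 named mouse genes of 47069 gene rows counted: the receptors Notch1, Notch2, Notch3 and Notch4, the ligands Jag1, Jag2, Dll1 and Dll4, and the target genes Hes1 and Hey1. They were listed by symbol, and all 10 had enough counts to be tested. RNA was sequenced from 3 distal metastases, 3 proximal metastases and 3 primary prostate tumours. The proximal metastases came from the epididymal fat. For the distal metastases the tissue label gives the diaphragm and the protocol gives the lung, so the site is called distal here. Every animal in every group was a C57BL/6 mouse of about 9 to 10 months that carried the allele Ctnnb1pc(ex3)delta/+ as part of its genotype, so no group without it was compared. This allele lacks exon 3 of Ctnnb1, which encodes beta-catenin. The Cre line or promoter behind it is not given in the sources used here. The samples are described as matched within 3 mice, without saying which samples share a mouse, so the library numbers are names and pair nothing across groups.

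Notch receptors are single-pass membrane proteins that are switched on by Jagged or Delta-like ligands on a neighbouring cell. Binding lets ADAM proteases and then gamma-secretase cut the receptor, and the freed intracellular part joins the DNA-binding protein RBPJ and Mastermind proteins to switch on targets such as the Hes and Hey repressors. In the prostate the pathway is known for roles in the basal and luminal epithelium, and in many tissues Notch4 and Dll4 are known from endothelium and Notch3 from vascular smooth muscle and pericytes.

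Library totals ranged from 28334730 counts in primary 3 to 40408723 counts in distal 2. Levels are given as CPM, a count divided by its library total after TMM scaling, and levels of different genes are compared only as RPKM, which also divides by exon length. The primary tumours were not alike. Primary 1 had 0.483 CPM of Pbsn, which encodes the luminal secretory protein probasin, while primary 2 had 211 CPM and primary 3 had 11.8 CPM. No metastasis exceeded 0.888 CPM of Pbsn. Hoxb13, a homeobox transcription factor of the prostate, ranged over 3.03 to 4.80 CPM in distal metastases and 3.38 to 4.94 CPM in proximal metastases, and its levels were 44.5, 222 and 68.4 CPM in primary 1, 2 and 3. These prostate-defining markers were thus scarce in the metastases, and lowest in primary 1 among the primary tumours, although the 9 luminal markers together, Krt8 and Krt18 included, still summed to 2460 to 2586 CPM in distal metastases and 1881 to 2760 CPM in proximal metastases, against 2845 to 15790 CPM in primary tumours. Primary 3 alone held 7501 CPM summed over 6 seminal vesicle genes, where no other library passed 29.1 CPM. The sum of 6 basal epithelial genes was also highest in primary 3, at 2902 CPM, with 677 CPM in primary 2, 89.0 CPM in primary 1 and no metastasis over 77.7 CPM. Skeletal muscle genes summed to 514 and 722 CPM in distal 2 and 3, and to at most 7.08 CPM elsewhere.

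The promoters of 4 of the genes are shown because these genes carry the main contrast among the primary tumours described below: Jag1 against Jag2, and Notch2 against Notch1. The windows are RefSeq sequence on GRCm38.p6, from 250 bases before to 50 bases after the annotated start, and 8 of the 10 genes, all but Hes1 and Hey1, matched a window. Capitals mark the GC box GGGCGG, read on both strands (CCGCCC on the other), a motif known as a binding sequence of Sp-family factors.
Jag1, chr2:137116471-137116770, minus strand: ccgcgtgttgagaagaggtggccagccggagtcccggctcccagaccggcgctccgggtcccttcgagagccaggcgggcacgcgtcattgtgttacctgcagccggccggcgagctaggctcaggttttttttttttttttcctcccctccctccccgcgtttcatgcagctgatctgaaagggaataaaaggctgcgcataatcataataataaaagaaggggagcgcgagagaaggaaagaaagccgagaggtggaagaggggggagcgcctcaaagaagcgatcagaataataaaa
Jag2, chr12:112929446-112929745, minus strand: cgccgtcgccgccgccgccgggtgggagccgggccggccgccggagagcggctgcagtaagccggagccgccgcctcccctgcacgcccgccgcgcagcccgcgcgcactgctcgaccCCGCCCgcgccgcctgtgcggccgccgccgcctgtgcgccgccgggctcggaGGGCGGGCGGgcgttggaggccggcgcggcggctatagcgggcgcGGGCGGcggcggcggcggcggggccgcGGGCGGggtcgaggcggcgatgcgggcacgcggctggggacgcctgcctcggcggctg
Notch1, chr2:26503773-26504072, minus strand: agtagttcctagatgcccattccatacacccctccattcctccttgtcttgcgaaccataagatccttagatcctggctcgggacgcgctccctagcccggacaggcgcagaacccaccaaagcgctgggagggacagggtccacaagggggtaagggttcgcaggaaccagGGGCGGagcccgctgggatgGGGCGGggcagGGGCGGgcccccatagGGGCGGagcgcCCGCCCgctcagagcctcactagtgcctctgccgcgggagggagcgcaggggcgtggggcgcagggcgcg
Notch2, chr3:98013288-98013587, plus strand: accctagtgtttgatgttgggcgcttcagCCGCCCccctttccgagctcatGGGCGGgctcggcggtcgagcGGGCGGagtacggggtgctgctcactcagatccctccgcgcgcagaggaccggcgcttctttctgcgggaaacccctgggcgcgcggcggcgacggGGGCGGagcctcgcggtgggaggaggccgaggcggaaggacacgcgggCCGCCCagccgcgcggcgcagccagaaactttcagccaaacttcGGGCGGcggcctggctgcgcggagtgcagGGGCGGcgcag
The Jag1 window held no GC box, at 55.7% G+C, and the Jag2 window held 5, at 86.0% G+C, with those starting at -80 and -76 overlapping. The Notch1 and Notch2 windows held 5 and 7. A GC box was found in 5 of the 8 matched genes (Notch1, Notch2, Notch3, Jag2 and Dll4) and in 35.7% of all 32851 promoter windows of the same length. The RBPJ motif GTGGGAA, read on both strands, was in none of the 8, against 6.38% of all windows. TCF motifs were looked for because beta-catenin acts through TCF factors. The form CTTTGAT was in none of the 8 on either strand, against 3.73% of all windows. The form ending in A, CTTTGAA, was likewise in none, against 5.14% of all windows. Of other pathway genes read in the same way, Hes5, Hes7 and Lfng held the RBPJ motif, while Nrarp and Hes6 did not. For comparison, the promoter of Hey2, a Notch target outside the 10 genes, held the RBPJ motif at -207 and at -4, marked here in capitals.
Hey2, chr10:30842734-30843033, minus strand: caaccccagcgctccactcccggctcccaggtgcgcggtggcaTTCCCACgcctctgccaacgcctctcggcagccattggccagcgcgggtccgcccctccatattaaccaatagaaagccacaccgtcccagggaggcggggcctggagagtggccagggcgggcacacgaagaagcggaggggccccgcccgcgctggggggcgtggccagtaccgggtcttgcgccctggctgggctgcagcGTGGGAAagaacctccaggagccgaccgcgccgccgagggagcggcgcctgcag
A match of letters describes the window only, and binding was not measured. For Jag1, Jag2, Notch1 and Notch2 the RefSeq start lies inside the gene as GENCODE M21 gives it, whose first base is further upstream, and the Jag2 and Notch1 windows lie wholly inside that gene.

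**Figure D1:**
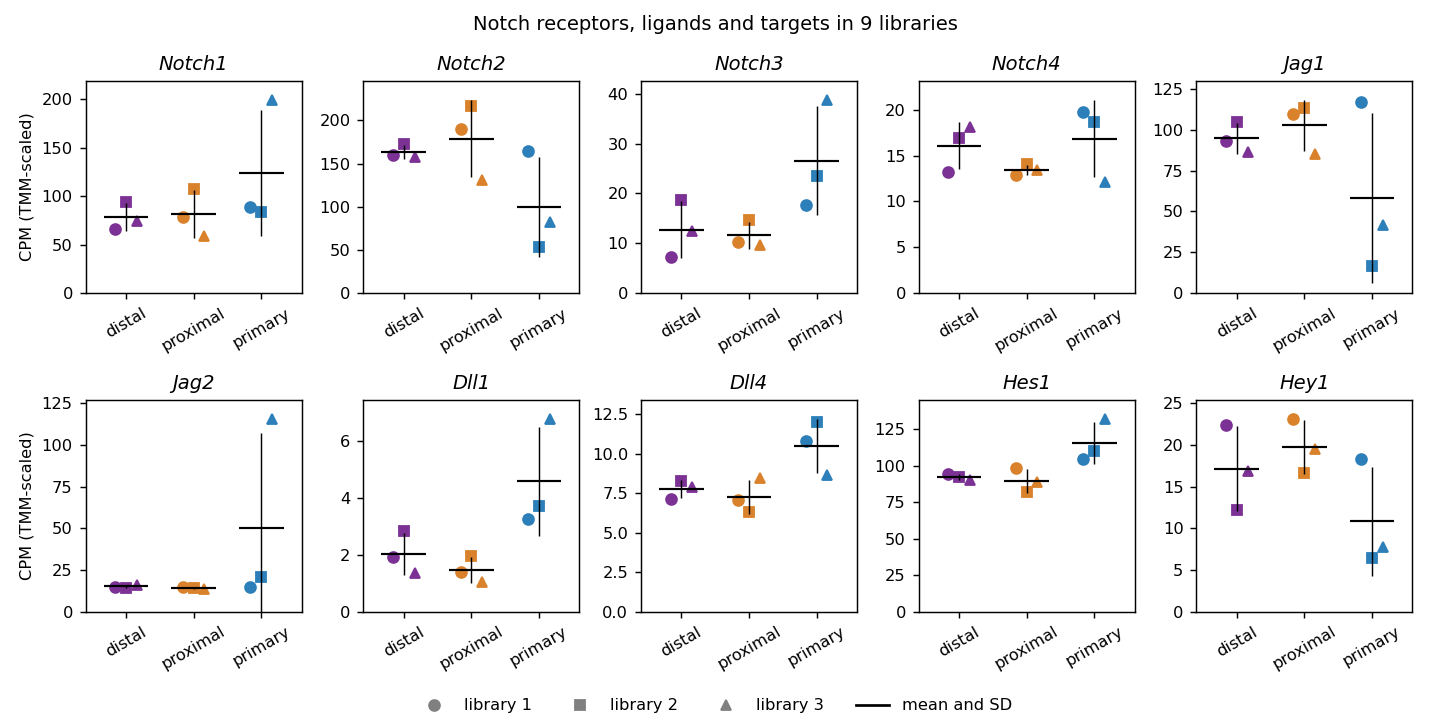
Level of each of the 10 genes in CPM (linear axis) in the distal, proximal and primary groups; points are libraries, with a shape for each library number, and the bar and whiskers are the mean and SD of 3 libraries, with the whisker of Jag2 in primary tumours cut at 0. Primary tumours spread most widely, as in Jag2 with 15.8 CPM as the highest metastasis and 116 CPM in primary 3, and both metastatic sites overlap for every gene.

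No Notch gene passed the test between any pair of groups, so none is described as having risen or fallen. In edgeR's quasi-likelihood test, with p-values adjusted by Benjamini-Hochberg over 18204 genes, 0 of 10 had an adjusted p below 0.05 in proximal metastases against primary tumours, where 0.0494% of all genes tested were called. The count was also 0 of 10 in distal metastases against primary tumours (background 0.0879%) and 0 of 10 in distal against proximal metastases (background 0%). At an unadjusted p below 0.05 there were 5 of the 10 genes in the proximal comparison, 4 in the distal comparison and 0 between the metastatic sites. Over all 18204 genes tested the counts were 3313, 3165 and 375. The median log2 fold change of the 10 genes was -0.45 in proximal and -0.38 in distal metastases against primary tumours, with 7 of 10 below 0 in each, while over all genes the medians were -0.05 and -0.03, with 52.8% and 52.0% below 0. Without primary 3 the medians of the 10 genes were -0.29 in proximal and -0.22 in distal metastases. On leaving out 1 library, 2 to 7 of 10 genes had an unadjusted p below 0.05 in the proximal comparison. The lowest count came without proximal 1 or proximal 2, where 1818 of 19093 and 2607 of 18988 of all genes did. The highest came without primary 1, where 8168 of 19009 did. In the distal comparison the range was 0 to 7 of 10. It was lowest without distal 1 or distal 3 (1974 of 19049 and 2255 of 18853 of all genes). It was highest without primary 1 (7939 of 19009). Both comparisons share the primary tumours. Because the samples are bulk tissue, fewer cells of a type and less RNA per cell cannot be told apart in any of these values.

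Dll1, Dll4 and Hes1 were the genes whose every metastasis, at either site, lay below every primary tumour. Dll1 and Dll4 encode Delta-like ligands, and Hes1 encodes a basic helix-loop-helix repressor that is a direct Notch target in many tissues. Dll1 stood at 1.93, 2.83 and 1.37 CPM in distal metastases, 1.41, 1.94 and 1.05 CPM in proximal metastases, and 3.25, 3.71 and 6.79 CPM in primary tumours. The highest of the 6 metastases, distal 2, was thus just under the lowest primary tumour, and primary 3 was the highest library. The log2 fold change of Dll1 was -1.64 ± 0.44 in proximal metastases (SE, n = 3 per group; edgeR adjusted p = 0.156) and -1.16 ± 0.44 in distal metastases (edgeR adjusted p = 0.243), each against primary tumours. Dll1 was the most thinly counted of the 10 genes, with 41 to 200 reads in a library.

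Hes1 showed small differences with little scatter: 94.2, 92.2 and 90.4 CPM in distal metastases, 98.3, 82.1 and 88.6 CPM in proximal metastases, and 105, 110 and 132 CPM in primary tumours. The gap between the groups was narrow, and proximal 1 came closest to the lowest primary tumour. Its log2 fold change against primary tumours was -0.33 ± 0.14 in distal metastases (SE, edgeR adjusted p = 0.272) and -0.37 ± 0.14 in proximal metastases (SE, edgeR adjusted p = 0.231). When libraries were scaled by their totals alone, Hes1 overlapped between the metastases and the primary tumours at both sites.

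Dll4, a ligand known from endothelial tip cells, had 7.15, 8.29 and 7.87 CPM in distal metastases, 7.05, 6.30 and 8.45 CPM in proximal metastases, and 10.8, 12.0 and 8.66 CPM in primary tumours. Primary 3 was only just above proximal 3 and distal 2. The log2 fold change of Dll4 was -0.43 ± 0.23 in distal metastases (SE, edgeR adjusted p = 0.335) and -0.53 ± 0.23 in proximal metastases (SE, edgeR adjusted p = 0.27), against primary tumours. Notch4, a receptor of endothelium, did not separate: it had 13.2, 16.9 and 18.1 CPM in distal metastases, 12.9, 14.0 and 13.5 CPM in proximal metastases, and 19.8, 18.7 and 12.1 CPM in primary tumours. The lowest primary tumour was below every metastasis, and the other primary tumours were above every metastasis. The 10 endothelial markers, all counted in every group, summed to 147, 219 and 246 CPM in distal metastases, 156, 229 and 178 CPM in proximal metastases, and 278, 360 and 275 CPM in primary tumours. Much of that gap came from Vwf, which encodes von Willebrand factor, at 5.601, 18.4 and 23.9 CPM in distal metastases, 12.7, 29.4 and 18.0 CPM in proximal metastases, and 35.8, 155 and 62.8 CPM in primary tumours. The other 9, summed after the values had been seen, gave 141, 200.1 and 222 CPM in distal metastases, 143, 199.6 and 160.4 CPM in proximal metastases, and 242, 206 and 213 CPM in primary tumours, so that distal 3 then overlapped the primary tumours. One by one, 2 of the 10 markers were below every primary tumour in all distal metastases (background 10.4% of all genes tested). In all proximal metastases 5 of the 10 were (background 10.7%), while defining genes such as Cdh5 and Pecam1 overlapped. The part of endothelium in the Dll4 and Notch4 values was not tested.

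Across the 10 genes, each proximal metastasis was below every primary tumour for 5 (Notch3, Jag2, Dll1, Dll4 and Hes1), and 10.7% of all genes tested had that pattern. The opposite pattern, every proximal metastasis higher, was seen for 0 of 10 and for 8.68% of all genes. In the distal metastases, 3 of 10 genes were below every primary tumour (background 10.4%) and 0 of 10 were above (background 8.4%). Between the metastatic sites, 0 of 10 genes were lower in every distal library (background 3.6%) and 0 of 10 were higher (background 4.03%). With median-ratio scaling the count lower in proximal metastases was 4, as Jag2 then overlapped.

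Jag2, a Jagged ligand known from stratified epithelia such as skin, had the largest fitted difference among the 10 genes, and 1 library set its size. It stood at 15, 14.3 and 15.8 CPM in distal metastases, 14.5, 14.4 and 13.4 CPM in proximal metastases, and 14.8, 20.5 and 116 CPM in primary tumours. The 6 metastases and primary 1 lay within a narrow band, primary 2 a little above it and primary 3 far above it. The log2 fold change was -1.74 ± 0.70 in distal metastases (SE, edgeR adjusted p = 0.264) and -1.84 ± 0.70 in proximal metastases (SE, edgeR adjusted p = 0.241), against primary tumours, and without primary 3 it was -0.22 and -0.32. Beside it, the basal marker Krt5 stood at 1356 CPM in primary 3, with 144 CPM in primary 2, 15.4 CPM in primary 1 and no metastasis over 2.79 CPM. Trp63, the defining basal transcription factor, stood at 106 CPM in primary 3, and no other library passed 2.69 CPM. The part of basal or seminal vesicle tissue in the Jag2 values was not tested.

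Notch1, a receptor that the same library held at its highest, read 65.9, 94.0 and 74.2 CPM in distal metastases, 78.3, 108 and 58.5 CPM in proximal metastases, and 88.6, 83.5 and 199 CPM in primary tumours. The groups overlapped, and without primary 3 the log2 fold changes against primary tumours were -0.14 in distal and -0.08 in proximal metastases. With it they were -0.66 ± 0.37 and -0.60 ± 0.37 (SE, edgeR adjusted p = 0.353 and 0.361). Notch3, the receptor of mural cells, read 7.20, 18.6 and 12.4 CPM in distal metastases, 10.2, 14.8 and 9.69 CPM in proximal metastases, and 17.6, 23.4 and 38.7 CPM in primary tumours. All proximal metastases lay below the lowest primary tumour, whereas distal 2 was above it. The Notch3 log2 fold change was -1.06 ± 0.41 in distal metastases (SE, edgeR adjusted p = 0.255) and -1.20 ± 0.41 in proximal metastases (SE, edgeR adjusted p = 0.216), against primary tumours. The 10 smooth muscle and pericyte markers, all counted in every group, summed to 268, 384 and 480 CPM in distal metastases, 180, 292 and 188 CPM in proximal metastases, and 525, 216 and 337 CPM in primary tumours. Des, which skeletal muscle also expresses, made up 7.30, 123 and 93.3 CPM of this in distal 1, 2 and 3. Without it, in a sum made after the values had been seen, the levels were 261, 261 and 387 CPM in distal metastases, 176, 279 and 185 CPM in proximal metastases, and 484, 208 and 316 CPM in primary tumours. Either sum overlapped between the groups, while 9 of the 10 markers had negative log2 fold changes in proximal and 6 of the 10 in distal metastases against primary tumours. Over all genes tested 52.8% and 52.0% were negative in these comparisons. Rgs5, Tagln and Acta2, the markers of this list with the highest mean levels, overlapped between primary tumours and metastases at both sites. Mcam, an adhesion molecule of mural and endothelial cells, is added after its values were seen. It lay at 23.7 to 30.3 CPM in distal and 22.9 to 26.8 CPM in proximal metastases, under every primary tumour (31.7 to 36.6 CPM). No other marker of the list was under every primary tumour in all proximal metastases (background 10.7% of all genes tested). In all distal metastases Myh11, Cspg4 and Kcnj8 were so too (background 10.4%). The part of mural cells in the Notch3 values was not tested.

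The genes with higher fitted levels in metastases, Notch2, Jag1 and Hey1, had primary 1 among or close to the metastases and primary 2 and 3 below all of them. Over all genes, too, primary 1 was closer to the metastases than to the other primary tumours. The chi-square per gene between libraries, larger for less alike counts, was 47.6 to 80.9 for primary 1 with the metastases. With primary 2 and 3 it was 828 and 336. Notch2, a receptor closely related to Notch1, had 160, 173 and 158 CPM in distal metastases, 190, 217 and 130 CPM in proximal metastases, and 164, 52.9 and 82.4 CPM in primary tumours. Jag1, the Jagged ligand that is also known as a target of beta-catenin signalling in some tissues, had 93.0, 105 and 86.4 CPM in distal metastases, 110, 113 and 85.0 CPM in proximal metastases, and 117, 16.6 and 41.7 CPM in primary tumours. Hey1, a repressor of the Hairy/Enhancer-of-split family, had 22.4, 12.2 and 16.9 CPM in distal metastases, 23.1, 16.7 and 19.5 CPM in proximal metastases, and 18.3, 6.40 and 7.71 CPM in primary tumours. For each gene the groups overlapped only through primary 1.

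The log2 fold changes against primary tumours were 0.71 ± 0.38 for Notch2 in distal metastases (SE, edgeR adjusted p = 0.342) and 0.84 ± 0.39 in proximal metastases (SE, edgeR adjusted p = 0.288). For Jag1 they were 0.70 ± 0.57 in distal metastases (SE, edgeR adjusted p = 0.473) and 0.81 ± 0.58 in proximal metastases (SE, edgeR adjusted p = 0.402). For Hey1 they were 0.66 ± 0.42 in distal metastases (SE, edgeR adjusted p = 0.386) and 0.87 ± 0.42 in proximal metastases (SE, edgeR adjusted p = 0.297). Ctnnb1 had the same arrangement of libraries, with 4213, 4457 and 3553 CPM in distal metastases, 4398, 3626 and 4961 CPM in proximal metastases, and 4399, 937 and 1771 CPM in primary tumours, and its part in these values was not tested. Without primary 1 the log2 fold change of Jag1 was 1.72 in distal and 1.83 in proximal metastases, and without primary 2 it was 0.26 and 0.37.

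**Figure D2:**
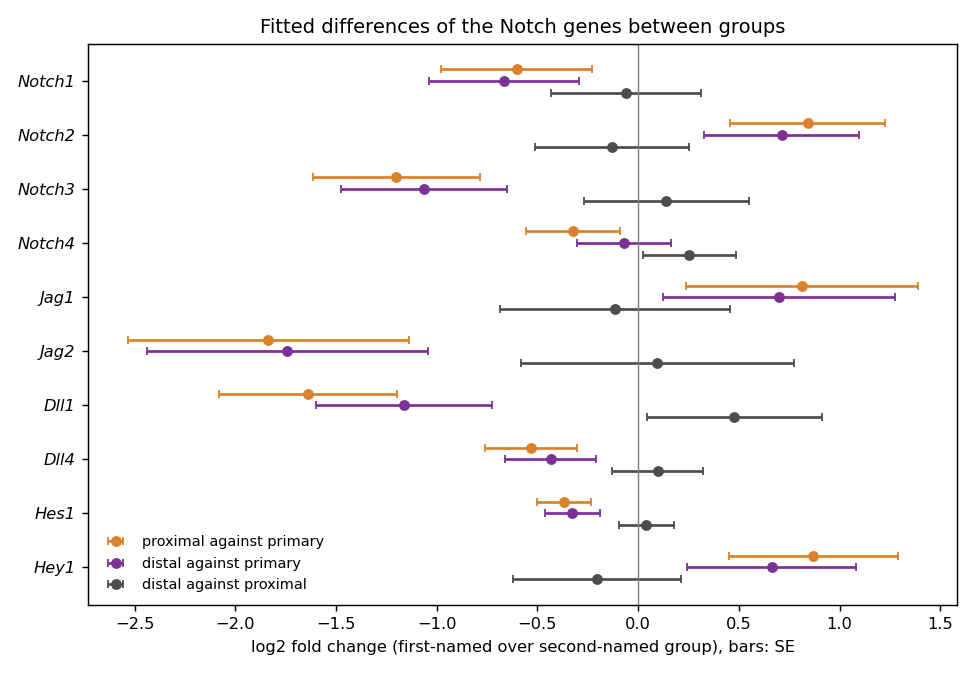
Fitted log2 fold change of each of the 10 genes in the comparisons of proximal and distal metastases with primary tumours and of distal with proximal metastases; points are edgeR estimates and bars are 1 SE, over 9 libraries. The estimates run from -1.84 for Jag2 in proximal against primary to 0.87 for Hey1 in the same comparison, while those between the metastatic sites lie between -0.21 and 0.48.

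The calls depended on the method and on primary 1. DESeq2 called 1 of 10 genes in proximal metastases against primary tumours, Dll1 (log2 fold change -1.67, DESeq2 adjusted p = 0.00461), where it called 8.16% of all genes tested, and 0 of 10 in distal metastases against primary tumours, where it called 7.93%. With limma-voom and sample quality weights, which gave primary 1, 2 and 3 the weights 0.175, 0.084 and 1.06 and the metastases 1.45 to 2.92, 6 of 10 genes were called in proximal metastases (Notch2, Notch3, Jag1, Jag2, Dll1 and Hes1; background 19.4%) and 2 of 10 in distal metastases (Jag2 and Dll1; background 16.7%). Without primary 1, edgeR called 6 of 10 genes in proximal metastases (Notch2, Notch3, Jag1, Jag2, Dll1 and Hey1; background 28.7%) and 4 of 10 in distal metastases (Notch2, Jag1, Jag2 and Hey1; background 27.4%). In the fits without primary 1, primary 2 and 3 alone stand for the primary tumours. In the limma-voom fit primary 3, where the seminal vesicle and basal genes were highest, had by far the largest weight of the primary tumours. The cause of the higher counts was not tested.

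The spread within groups differed, and this bears on every test above. The median SD of log2(CPM + 0.5) over the 10 genes was 0.189 in distal metastases, 0.229 in proximal metastases and 0.63 in primary tumours, and over all genes tested it was 0.138, 0.144 and 0.492. The primary tumours thus scattered more widely over all genes as well.

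**Figure D3:**
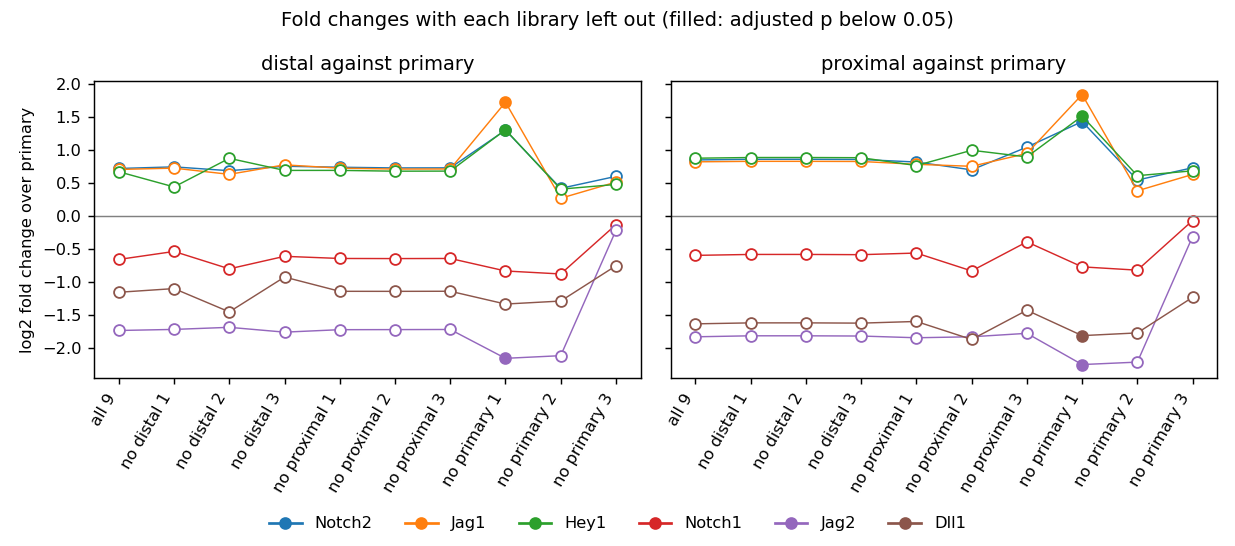
Log2 fold change (vertical axis) against primary tumours of Notch2, Jag1, Hey1, Notch1, Jag2 and Dll1, for distal and proximal metastases, in the edgeR fit with all 9 libraries and in the fits that each leave out 1 library (horizontal axis). Filled points have an adjusted p below 0.05. Jag2 moves from -1.84 to -0.32 in proximal metastases without primary 3, and Jag1 from 0.81 to 1.83 without primary 1.

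The pairs Notch2 with Notch1 and Jag1 with Jag2 were compared as ratios of counts within a library, which no scaling between libraries affects. These pairs were chosen after the values had been seen, so the ratios are a description with no test. Notch2 over Notch1 was 2.43, 1.84 and 2.13 in distal metastases, 2.42, 2.02 and 2.23 in proximal metastases, and 1.85, 0.633 and 0.414 in primary tumours. Jag1 over Jag2 was 6.20, 7.33 and 5.45 in distal metastases, 7.57, 7.87 and 6.36 in proximal metastases, and 7.88, 0.811 and 0.360 in primary tumours. Primary 1 was within the range of the metastases for Notch2 over Notch1 and barely above it for Jag1 over Jag2. Primary 2 and 3 lay below 1 in both. As given above, primary 1 was closer to the metastases than to primary 2 and 3 over all genes as well. Per length, which is the scale on which genes can be compared, Jag1 over Jag2 was 6.52 to 8.76 in distal metastases, 7.60 to 9.41 in proximal metastases and 0.431 to 9.42 in primary tumours.

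**Figure D4:**
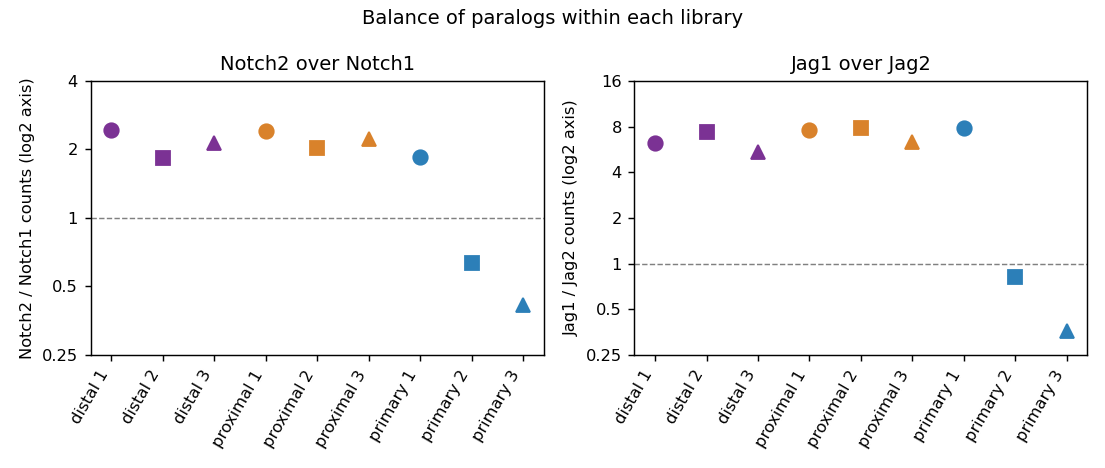
Ratio of counts, on log2 axes, of Notch2 to Notch1 and of Jag1 to Jag2 in each library of the distal, proximal and primary groups. The metastases range from 1.84 to 2.43 for Notch2 over Notch1 and from 5.45 to 7.87 for Jag1 over Jag2, while primary 2 and 3 are below 1 in both.

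On the per-length scale Hes1 was the most abundant of the 10 genes in every group, at 45.3 ± 0.944 RPKM in distal metastases, 44.0 ± 4.01 RPKM in proximal metastases and 56.8 ± 7.11 RPKM in primary tumours (SD, n = 3 each), with no overlap with the next gene. Jag1 and Notch2 followed in that order in every group, and their ranges overlapped each other in each group. In distal metastases Jag1 averaged 16.3 ± 1.63 RPKM and Notch2 15.2 ± 0.766 RPKM, and in primary tumours 10.0 ± 8.95 and 9.26 ± 5.35 RPKM. Notch1 and Hey1 came next in the metastases, between 5.25 and 6.06 RPKM on average, with overlapping ranges. In primary tumours Notch1 came next, at 8.69 ± 4.59 RPKM, and then Jag2, at 7.23 ± 8.14 RPKM, both with primary 3 as their highest library. Jag2, Dll4, Notch4 and Notch3 followed in that order in the metastases, and each overlapped the next. Jag2 (1.92 to 2.08 RPKM) and Notch4 (1.60 to 1.74 RPKM) did not overlap in proximal metastases. Dll1 was the least abundant in every group, averaging 0.484 RPKM in distal metastases, 0.348 RPKM in proximal metastases and 1.09 RPKM in primary tumours.

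Between the metastatic sites all 10 genes overlapped, and no estimate passed its test (edgeR adjusted p = 1.0 for each). The fitted log2 fold changes of distal over proximal metastases ran from -0.21 ± 0.42 for Hey1 to 0.48 ± 0.43 for Dll1 (SE, n = 3 each). Skeletal muscle genes were high in distal 2 and 3 and low in distal 1, and Notch3 was 18.6 and 12.4 CPM in distal 2 and 3 against 7.20 CPM in distal 1. The part of muscle in the Notch3 values was not tested.

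The other genes of the pathway were taken from lists that cover 46 genes, of which 43 were tested (Dll3, Hes5 and Hes7 were too low). None was called in any comparison, 0 of 43 each, in the same edgeR fit, against the backgrounds of 0.0494% in proximal and 0.0879% in distal metastases against primary tumours and 0% between the sites. At an unadjusted p below 0.05 there were 6 in distal metastases and 4 in proximal metastases, against primary tumours, and 1 between the sites. Over all 18204 genes the counts were 3165, 3313 and 375. DESeq2 called 2 of 43 in distal metastases (Dtx4 and Hes6; background 7.93%) and 2 of 43 in proximal metastases (Neurl1a and Dtx4; background 8.16%), against primary tumours, and none of the 43 between the sites. With limma-voom and sample quality weights 6 of 43 were called in distal metastases (background 16.7%) and 7 of 43 in proximal metastases (background 19.4%). Without primary 1, where 44 passed the filter, edgeR called 8 of 44 in distal metastases (background 27.4%) and 7 of 44 in proximal metastases (background 28.7%). None of these shares exceeded its background. The median of the 43 log2 fold changes was -0.04 in distal and -0.06 in proximal metastases against primary tumours, and -0.03 in distal against proximal metastases. The genes named here come from the 2 with the highest mean level of each list.

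Among the cleavage machinery, Adam10, the protease that makes the first ligand-induced cut, had 1076, 976 and 949 CPM in distal metastases, 1108, 1014 and 927 CPM in proximal metastases, and 911, 249.5 and 522 CPM in primary tumours. Every metastasis was above every primary tumour, but primary 1 lay just below the lowest. Its log2 fold change was 0.83 ± 0.40 in distal metastases (SE, edgeR adjusted p = 0.312) and 0.86 ± 0.40 in proximal metastases (SE, edgeR adjusted p = 0.293), against primary tumours. Ncstn, which encodes the gamma-secretase subunit nicastrin, had log2 fold changes of 0.32 ± 0.27 and 0.36 ± 0.27 (SE, edgeR adjusted p = 0.484 in distal and 0.427 in proximal metastases). Of the nuclear complex, Rbpj had 114, 89.1 and 104 CPM in distal metastases, 113, 92.7 and 98.4 CPM in proximal metastases, and 94.3, 43.8 and 78.9 CPM in primary tumours. Its groups overlapped through primary 1, and the differences did not pass the test (edgeR adjusted p = 0.336 in distal and 0.326 in proximal metastases). Snw1, which encodes the Notch-associated co-factor SKIP, had log2 fold changes of -0.29 and -0.24 in distal and proximal metastases.

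Hes6 is a Hes family member outside the 10 genes that inhibits Hes1 in known contexts. It had 247, 292 and 303 CPM in distal metastases, 245, 249.3 and 224 CPM in proximal metastases, and 215, 127 and 173 CPM in primary tumours. All 6 metastases exceeded all primary tumours, with log2 fold changes of 0.71 ± 0.20 in distal metastases (SE, edgeR adjusted p = 0.168) and 0.48 ± 0.20 in proximal metastases (SE, edgeR adjusted p = 0.264). For Hes6 in distal metastases the DESeq2 adjusted p was 0.00823. Hey2, whose promoter is shown above, ranged over 8.80 to 12.7 CPM in distal metastases, 8.62 to 14.4 CPM in proximal metastases and 1.25 to 23.3 CPM in primary tumours, and overlapped. The ligand ubiquitin ligases Mib1 and Mib2, are known to drive endocytosis of bound ligand. For Mib1 the log2 fold change against primary tumours was 0.23 ± 0.28 in distal metastases (SE, edgeR adjusted p = 0.622) and 0.32 ± 0.28 in proximal metastases (SE, edgeR adjusted p = 0.488). For Mib2 it was -1.001 ± 0.33 in distal metastases (SE, edgeR adjusted p = 0.212) and -0.87 ± 0.33 in proximal metastases (SE, edgeR adjusted p = 0.242). Mib2 was highest in primary 2, at 55.3 CPM, and every distal metastasis (16.7 to 19.7 CPM) was under every primary tumour (20.1 to 55.3 CPM).

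The remaining named genes overlapped between primary tumours and metastases at both sites: Furin and Pofut1, which mature the receptor, Tle1, which is a corepressor, and Itch and Dtx3, which are ubiquitin ligases that act on the receptor pathway. The log2 fold changes of these 5 genes against primary tumours ran from -0.34 to 0.33. Dlk2, a Delta-like homologue, also overlapped, at 1.2 to 1.4 CPM in distal metastases, 0.766 to 2.2 CPM in proximal metastases and 0.586 to 10.6 CPM in primary tumours. Dtx4, another Deltex ubiquitin ligase, is added after its values were seen, as it had the lowest estimates among the ubiquitin ligases and other attenuators: 23.8, 35.6 and 26.6 CPM in distal metastases, 20.8, 20.3 and 34.2 CPM in proximal metastases, and 28.8, 142 and 117 CPM in primary tumours. Primary 2 and 3 were far above all other libraries and primary 1 lay among the metastases. The log2 fold change of Dtx4 was -1.74 ± 0.53 in distal and -1.93 ± 0.53 in proximal metastases (SE, edgeR adjusted p = 0.19 and 0.164), and the DESeq2 adjusted p was 0.0247 and 0.00955.

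**Figure D5:**
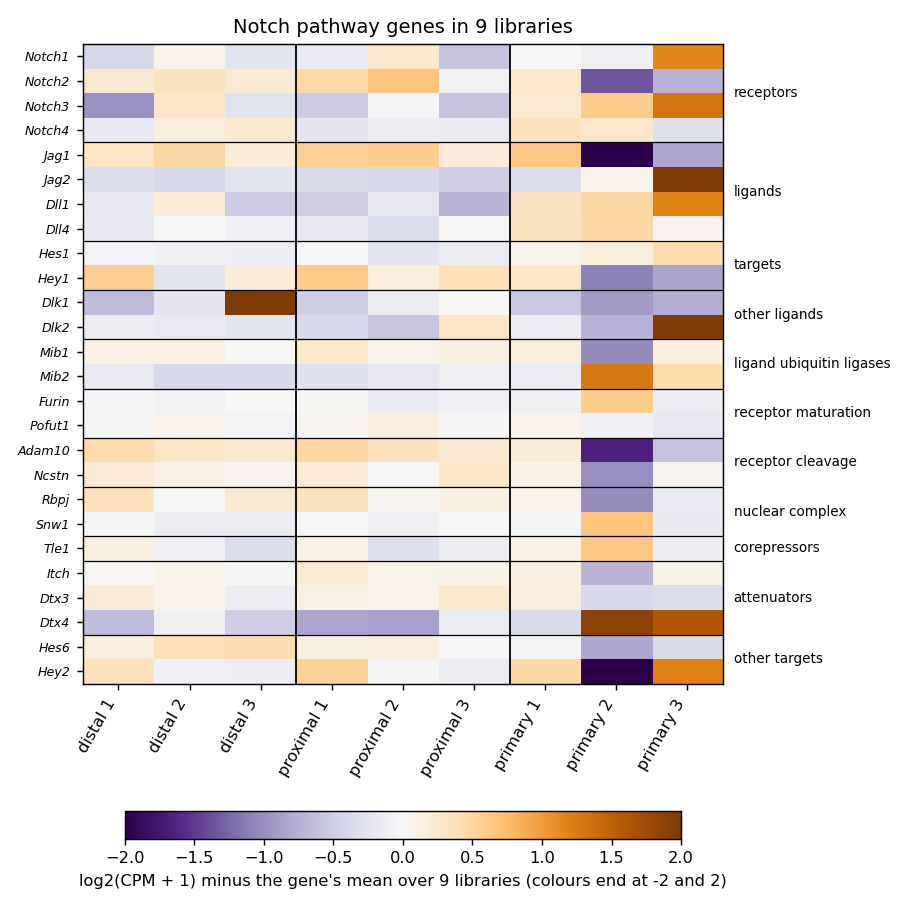
Level of the 10 genes and of 16 other pathway genes named in the text in each library of the distal, proximal and primary groups, as log2(CPM + 1) minus the gene's mean over the 9 libraries, by colour, which ends at -2 and 2. Primary 2 and 3 depart most from the metastases, and primary 1 lies closer to them, as in Jag1 with 117 CPM in primary 1 against 16.6 CPM in primary 2.

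Genes with the pattern most like a Notch gene were found as the tested genes with the highest Pearson correlation of log2(CPM + 1) over the 9 libraries. The libraries fall into clusters, so these values describe shared patterns and carry no p. For Jag2 the closest were Padi3 (0.998), Dsg3 (0.995) and Loxl4 (0.994). These 3 genes reached the minimum mean level for candidates only through primary 3, where Jag2 was also highest, so their values describe that library and nothing more. The closest to Jag1 were Dpy19l1 (0.998), Zfp248 (0.997) and Slc5a6 (0.997), and to Notch2 they were Igdcc3 (0.995), Slk (0.994) and Afap1l2 (0.994). For Hes1 they were Heca (0.953), Krt5 (0.952) and Cttnbp2nl (0.950), and for Hey1 Mphosph8 (0.984), Unc13a (0.979) and Arsa (0.978). Krt5 reached the minimum mean level only through the primary tumours, where Hes1 was also highest, so its value describes that contrast and nothing more. Notch1 was closest to Mdn1 (0.975), Bcl9 (0.951) and Irs1 (0.948). Ms4a7, a gene known from macrophages, was closest to both Dll1 (0.972) and Notch3 (0.953), and Dll1 was next closest to Ubtd2 (0.968). Ms4a7 stood at 7.04, 9.68 and 14.5 CPM in primary tumours and at 3.09 to 6.24 CPM in metastases. It reached the minimum mean level for candidates only through the primary tumours, where Dll1 and Notch3 were also higher on average. Its values thus describe that contrast and nothing more. The genes next closest to Notch3 are not reported here. The sum over 6 macrophage markers was 147, 160 and 242 CPM in distal metastases, 142, 223 and 122 CPM in proximal metastases, and 266, 547 and 397 CPM in primary tumours, and its part in the Dll1 and Notch3 values was not tested. Dll4 was closest to Rhpn2 (0.920), Vil1 (0.918) and Vsig10 (0.917).

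On GRCm38 in GENCODE M21, the genes lie at chromosome 2:26457903-26516663 (Notch1, minus strand), 3:98013527-98150361 (Notch2, plus), 17:32120820-32166852 (Notch3, minus) and 17:34564268-34588503 (Notch4, plus). The ligand genes lie at 2:137081456-137116644 (Jag1, minus), 12:112907819-112929776 (Jag2, minus), 17:15367354-15376872 (Dll1, minus) and 2:119325784-119335962 (Dll4, plus), and the targets at 16:30064384-30067796 (Hes1, plus) and 3:8663359-8667256 (Hey1, minus). Exons of Notch1, Notch3, Dll1 and Dll4 overlap a gene on the other strand, exons of Notch2 overlap Gm42820 on the same strand, and the strand setting of the counting is not given in the sources used here, so reads in those stretches are uncertain.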

How the data were processed

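Total RNA from 9 mouse samples was extracted with a Qiagen kit and sequenced as Illumina libraries, per the labels' protocols. The deposited values are raw counts per Ensembl gene, 1 file per library. The submitters' processing notes name the build GRCm38.p3, DESeq2 1.14.1 and R 3.2.3, HTSeq 0.6.0, the aligners Bowtie2 2.2.6.0 and TopHat2 2.1.0, and FastQC 0.11.4. Neither the annotation nor the strand setting is given in the sources used here. Of 47069 identifiers, 46574 matched a symbol. No pair of libraries agreed within sampling noise (lowest chi-square per gene 25.4, where noise gives about 1).

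Counts were fitted over all 9 libraries and 3 groups with edgeR 4.0.16 in R 4.3.3 (quasi-likelihood F-test, robust, 6 residual degrees of freedom, TMM scaling, genes with too few counts removed by filterByExpr with a minimum count of 10 and a total of 15). Benjamini-Hochberg adjustment ran over the 18204 genes left, called below 0.05. The TMM factor was 0.795 in primary 2 and 0.994 to 1.05 elsewhere. Other fits used DESeq2 1.42.0, limma 3.58.1 with voom, other scalings and filters, and left out each library. The scripts were tested on simulated counts. The labels do not tie samples to the 3 mice, so p-values treat the libraries as independent. CPM uses TMM-scaled totals, and RPKM divides by exon-union length of GENCODE M21. The named pathway genes are the 2 of each list with the highest mean CPM, and any called. Values of some genes are not reported here. For likeness, candidates needed a mean of 5 CPM or more. The Notch genes and all lists were chosen with earlier results of these data known.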

Additional observations from a re-analysis of the deposited data

How the results depend on the processing

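No paired analysis was possible because the sources used here do not say which libraries came from the same mouse. The 9 genes called in proximal and 16 in distal metastases against primary tumours became 15 and 17 with median-ratio size factors, 8 and 10 with library totals alone, 26 and 23 with no filter on low counts, 1486 and 1444 with DESeq2, 3525 and 3041 with limma-voom and sample quality weights, and 0 and 0 when only the compared groups were fitted. Leaving out 1 library gave 0 to 5447 and 0 to 5203 calls. Distal against proximal, with 0 calls in edgeR (375 at an unadjusted p below 0.05), gave 85 with DESeq2 and 0 to 38 on leaving out 1 library. The cause was not tested.

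For the 10 Notch genes, over the 15 alternatives, 137 values of proximal against primary kept direction and call and 13 became calls. In distal against primary 139 kept both, 6 became calls and 5 reversed, and in distal against proximal 145 kept both and 5 reversed. The reversals were Notch4 in distal against primary (-0.07; 0.045 with library totals alone, 0.22 with limma-voom, -0.257 to 0.0843 on leaving out 1 library) and, between sites on leaving out 1 library, Notch1 (-0.25 to 0.19), Notch2 (-0.31 to 0.0293), Notch3 (-0.24 to 0.42) and Hes1 (-0.021 to 0.12). All were small and uncalled. Depth limits Dll1 most, with 41 to 200 reads in a library.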

Other observations

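Dlk1, a non-canonical Notch ligand, read 0.2501, 0.643 and 25.7 CPM in distal metastases, 0.392, 0.766 and 0.955 CPM in proximal metastases, and 0.322, 0.0391 and 0.136 CPM in primary tumours. Distal 3 alone was high, and the other 8 libraries stayed below 1 CPM. The neuroendocrine genes Chga and Chgb, which encode chromogranins of secretory granules, stood at 135 and 134 CPM in distal 3 and at most 6.55 and 11.2 CPM in any other library. The log2 fold change of Dlk1 in distal against proximal metastases was 3.64 ± 1.58 (SE, n = 3 each; edgeR adjusted p = 1.0). The part of neuroendocrine cells in the Dlk1 level was not tested.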
